A study of Mus musculus with 12 samples.

Results

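Mouse embryonic stem cells lacking Mettl3 were compared with wild-type cells after both had been held in a paused state, using 6 of the 12 poly(A) RNA-seq libraries of the study, chosen by their genotype and treatment labels. The 3 wild-type paused libraries (WT paused) and the 3 Mettl3-KO paused libraries (KO paused) come from E14, an established mouse embryonic stem cell line, kept on gelatin in medium with fetal bovine serum (FBS) and leukaemia inhibitory factor (LIF). Paused cells had received 200 nM INK128, an inhibitor of the kinase mTOR, for 2 weeks, and the other 6 libraries are the same genotypes (3 WT, 3 KO) growing in FBS/LIF without the drug. The labels give neither the exon that was deleted nor the number of knockout clones, and nothing says that replicates are separate cultures, so p-values measure the spread between these libraries, which may be technical. RNA of 200000 cells per library was extracted and ERCC RNA, a mix of synthetic spike-in transcripts, was added to the extract.

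Mettl3 is the catalytic subunit of the complex that writes N6-methyladenosine (m6A), the commonest internal modification of mRNA, mostly at a GGAC-type sequence. Reader proteins bind m6A, and many methylated transcripts are short-lived. Inhibiting mTOR holds embryonic stem cells in a slow, reversible state that resembles the diapause of the blastocyst, in which transcription and translation are low while pluripotency genes stay on. The series title places m6A in the control of transcriptional dormancy, and the comparison described here asks how the transcriptome of paused cells differs when Mettl3 is missing.

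Expression was read on a pair of scales. CPM (counts scaled to a fixed library total) and log2 fold changes on the relative scale compare each gene with the other genes of its library. On the per-cell scale the ERCC total takes the place of the library size, so a value is an amount per ERCC molecule and, with equal cell numbers, per cell. The median of all 15281 tested genes was -0.00 on the relative scale and 0.39 on the per-cell scale, so a gene between -0.39 and 0 on the first scale turns positive on the second. A gene was called at an adjusted p under 0.05 in edgeR's quasi-likelihood test over all tested genes. Fold changes are log2 KO over WT, 3 libraries against 3, on the relative scale unless the per-cell scale is named. A gene's standard error (SE) was derived from its fold change and its F value in that test. The spread in that test came from all 12 libraries, so the SE is not that of the 3 and 3 paused libraries alone.

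Paused libraries held between 10615548 and 29793338 counts. The abundant rRNA-derived row Rn45s took 22.1% to 28.0% of gene counts in replicate 1 of each group and 12.9% to 17.6% in the others. The libraries also differed by genotype in ways the labels do not mention. Of the genes on the Y chromosome, Kdm5d had 1 count and Uty, Ddx3y and Eif2s3y had 3 counts each over the 3 WT paused libraries, against 3183, 6501, 6907 and 5142 over the KO paused libraries. For Kdm5d, a histone demethylase, the ratio of CPM was 1821 with a 95% exact interval of 327 to 71957, which covers counting error only. Lines with and without Y-linked expression were therefore compared, and whatever else separates the lines cannot be told apart from the loss of Mettl3.

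The median difference also shifted by chromosome, in all 3 KO paused libraries alike. Genes of chromosome 1 had a median of -0.45 (851 genes, 437 lower and 105 higher) and those of chromosome 8 a median of -0.44 (794 genes, 413 lower and 109 higher). Chromosome 3 stood at 0.21, chromosome 14 at -0.15, and the remaining autosomes and the X between -0.07 and 0.13. Within chromosome 3 (mm10), 151 tested genes between positions 102086415 and 130599877 had a median of 1.00, with 101 higher and 3 lower, whereas the 50 genes from 144729677 to 159938664 had a median of -0.83. These stretches were chosen after their values were seen. In growing cells the first stretch of chromosome 3 had a median of 0.15, the last one -0.89, and the tested genes of proximal chromosome 1, from 3205901 to 58758884, a median of 0.29 against -0.40 in paused cells, with 80 genes lower and 3 higher in the test between conditions. The distal part of chromosome 11, from 80089400, stood at 0.45 in growing and 0.04 in paused cells. For a gene named below on chromosomes 1, 3 or 8, the median of its 49 nearest tested neighbours is given where it runs in the same direction by 0.4 or more. The part these shifts have in any single gene's difference was not tested. Outside chromosomes 1, 3, 8, 11 and Y, 3356 of 11529 genes were higher and 2504 lower, with a median of 0.03.

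**Figure D1:**
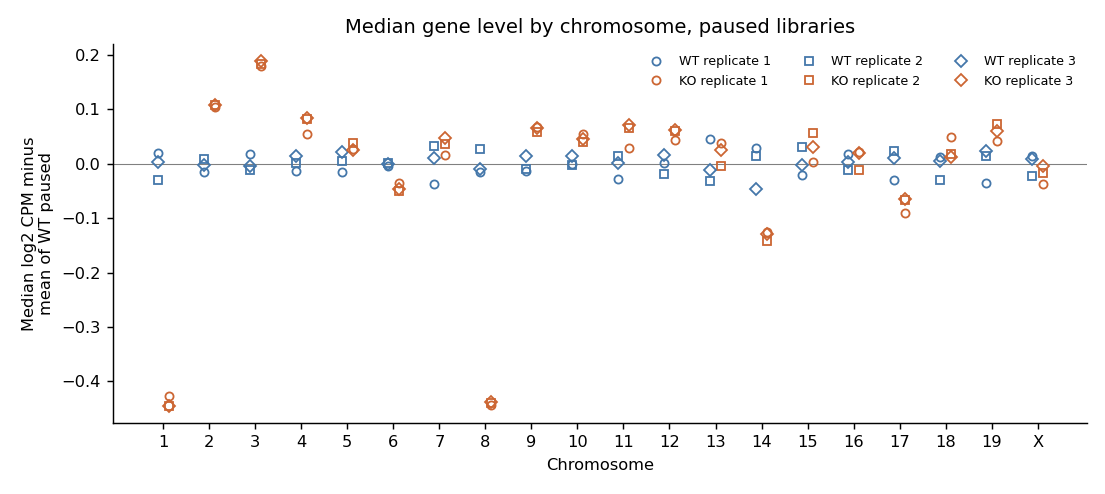
Median over genes of at least 1 CPM on each chromosome of the log2 CPM in a library minus the mean of the WT paused libraries (vertical axis), for the 3 WT (blue) and 3 KO (orange) paused libraries. Chromosomes 1 and 8 sit near -0.44 in all 3 KO libraries and chromosome 3 above the others, while WT libraries stay near 0.

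**Figure D2:**
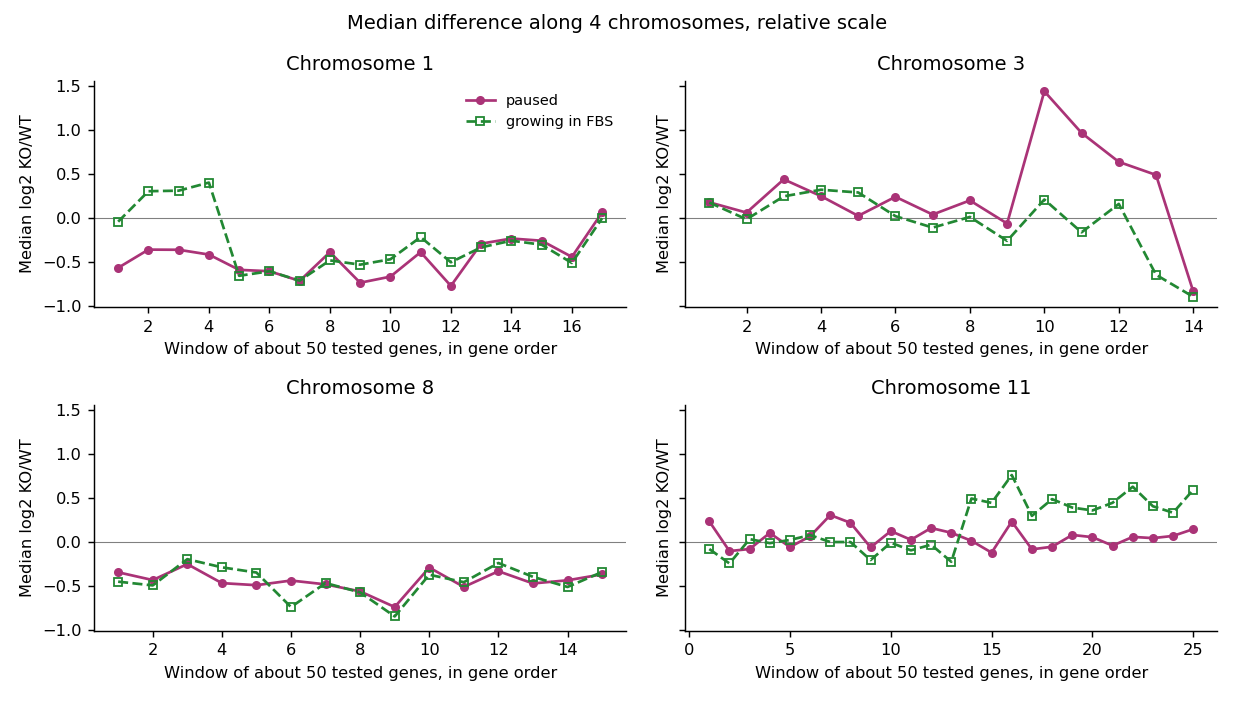
Median log2 KO over WT on the relative scale in windows of about 50 tested genes along chromosomes 1, 3, 8 and 11, in paused (filled circles) and growing (open squares) cells. The rise in the middle of chromosome 3 is seen in paused cells, the rise along distal chromosome 11 in growing cells, and the low level of chromosome 8 in both.

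Mettl3 (chromosome 14, 52294841 to 52305128, minus strand) was measured at 35.3, 39.2 and 33.6 CPM in the WT paused libraries and at 28.8, 31.3 and 29.7 CPM in the KO paused libraries. All KO values lay below all WT values, and the fold change was -0.27 ± 0.09 (SE, adjusted p = 0.0285). The call was lost without KO paused replicate 1 (adjusted p = 0.0977), KO paused replicate 3 (0.0786) or WT paused replicate 2 (0.118), and without the filter on low counts (0.0741). Per cell the value was 0.12, and in growing cells it was -0.30. Transcripts of the gene are thus still counted in the knockout, and a count over the whole gene does not check a deletion whose exon is unknown.

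In all, 52.3% of the tested genes were called on the relative scale, 4228 (27.7%) higher and 3771 (24.7%) lower in KO paused cells. Per cell, 32.8% were called, 4146 (27.1%) higher and 859 (5.62%) lower. These shares over all genes stand beside the counts of every list below. The genes higher on both scales numbered 3765 and those lower on both 857, while 2914 genes that were lower relative to the rest of the library were not called per cell. Without WT paused replicate 2 the lower calls per cell fell to 567. RNA per cell in these poly(A) libraries, as gene counts per scaled ERCC count, read 27.9, 38.3 and 33.0 for the WT paused libraries and 37.3, 41.0 and 37.7 for those of the KO. The KO value was higher by 0.24 ± 0.14 on the log2 scale (SE), and with WT replicate 2 above KO replicate 1 the groups overlapped (exact two-sided permutation test, p = 0.3, where 3 against 3 cannot go below 0.1). ERCC RNA was added after extraction, so the per-cell scale does not cover losses before that step.

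The remaining parts of the methylation machinery differed in both directions. Of 10 tested writer-complex genes, 5 were higher and 1, Mettl3 itself, was lower. Rbm15, an RNA-binding adaptor of the complex, stood at 97.5, 85.0 and 86.2 CPM in WT and 279, 278 and 246 CPM in KO paused cells, a rise of 1.58 ± 0.16 (adjusted p = 5.56e-06). It lies on the raised stretch of chromosome 3, where its neighbours' median was 1.41. Wtap, the subunit that holds the complex in nuclear speckles, rose by 0.51 ± 0.07, Rbm15b by 0.41 ± 0.11 and Mettl14, the partner that forms the heterodimer with Mettl3, by 0.38 ± 0.08. Mettl14 is also on chromosome 3, and the median of its neighbours was 0.59. Among 10 readers, 3 were higher and 3 lower, near the shares over all genes. Ythdf2, which brings methylated mRNA to deadenylation, rose from 117, 112 and 101 to 236, 230 and 231 CPM, by 1.08 ± 0.14 (adjusted p = 3.23e-05), with no overlap. The nuclear reader Ythdc1 rose by 0.70 ± 0.11 and Ythdf1 by 0.42 ± 0.14, while Igf2bp2, Igf2bp3 and Hnrnpc fell by 0.51, 0.34 and 0.41. The calls of Ythdf1 and Hnrnpc were lost when single libraries were left out, with adjusted p up to 0.0868 and 0.105. That of Hnrnpc was also lost without the filter on low counts (0.0542). Of the demethylases, Fto fell by 0.76 ± 0.07, and Alkbh5 was at 0.22 ± 0.10 (adjusted p = 0.0783). On the per-cell scale Rbm15, Wtap, Rbm15b, Ythdf2, Ythdc1 and Ythdf1 were called higher, whereas none of the lower ones was called. The per-cell calls of Wtap, Rbm15b and Ythdf1 were lost when single libraries were left out, with adjusted p up to 0.106, 0.209 and 0.192, in each case without WT paused replicate 1. With all libraries kept, those of Rbm15b and Ythdf1 were also lost with the plain ERCC total (adjusted p = 0.0517 and 0.0514). The same held without the filter on low counts (0.0523 and 0.0515).

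Mycn and Myc encode transcription factors that raise growth and biosynthesis, and they differed in opposite directions. Mycn (chromosome 12, 12936093 to 12941914, minus strand) is shown here with its GGACT matches because this is the best-known form of the sequence that the complex methylates. The longest coding transcript of GENCODE vM21 (3 exons, 2674 bases) has 2 matches, both in coding sequence, one in exon 2 and the other in exon 3, printed 5′ to 3′ with GGACT in capitals.
Mycn exon 2, chr12:12940040-12940060, minus strand: atccttcaGGACTgcatgtgg
Mycn exon 3, chr12:12937004-12937024, minus strand: acacgctcGGACTtgctaaac
Methylation was not measured in these libraries, so a match is a description of the letters only. Mycn was at 214, 197 and 219 CPM in WT and at 370, 379 and 390 CPM in KO paused cells. The groups did not overlap, and Mycn rose by 0.86 ± 0.19 (adjusted p = 0.00248), by 1.26 per cell (adjusted p = 0.000825), and by 0.91 in growing cells. Myc stood at 81.2, 96.0 and 78.8 CPM in WT and 45.9, 49.3 and 49.3 CPM in KO, a fold change of -0.82 ± 0.34 (adjusted p = 0.058) that missed the threshold although the groups did not overlap. Among the other settings it passed with the 6 paused libraries alone (adjusted p = 7.28e-08), without WT FBS replicate 1 (7.04e-08) or replicate 2 (0.0357), with DESeq2 (0.0396), and with TMM factors from genes outside chromosomes 1, 3, 8, 11 and Y (0.0496). Of 12 genes of the Myc family and its partners, 3 were higher and 2 lower, no more than the 27.7% and 24.7% over all genes. Beside Mycn these were the repressors Mxd4 and Mxi1 (0.65 and 0.38), and Mlx and Mnt (-0.45 and -0.72). Each of those 4 calls was lost when at least one library was left out, and without WT FBS replicate 1 the list had 6 lower. Among 30 genes that Myc is known to activate, 8 fell, a share near that of all genes, and 1 rose, with a median of -0.29 on the relative scale and 0.10 per cell. With the 6 paused libraries only, or without WT FBS replicate 1, 18 fell and 6 rose. Nop58, a core protein of the box C/D ribonucleoproteins that guide rRNA modification, fell by 1.09 ± 0.13, with a neighbour median of -0.48 on chromosome 1. Mcm4, a subunit of the replicative helicase, fell by 0.80 ± 0.10.

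**Figure D3:**
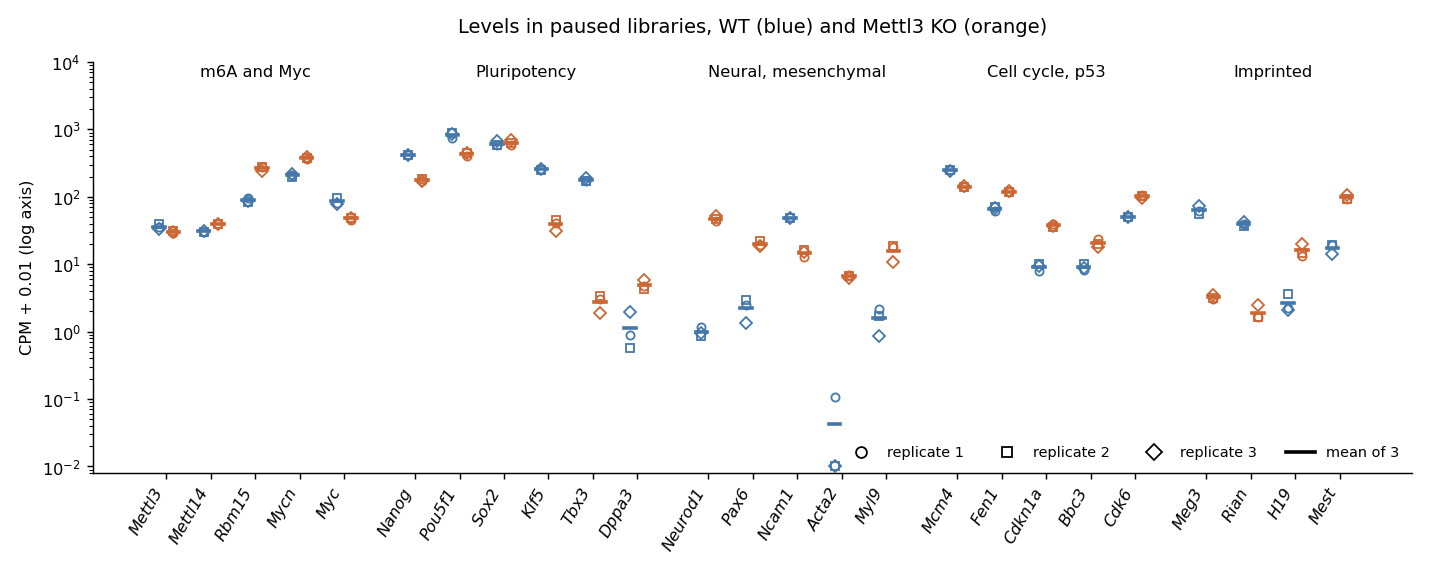
CPM (plus 0.01, log axis) of 25 genes in the 3 WT (blue) and 3 KO (orange) paused libraries, one symbol per replicate with a bar at the mean. Mycn, Neurod1, Cdkn1a and Mest lie higher in KO, Nanog, Tbx3, Klf5, Meg3 and Rian lower, and Sox2 overlaps between the groups.

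The naive pluripotency network fell in part. Of 24 tested genes of this list 16 were lower and 1 higher, with a median of -0.84 against -0.00 for all genes. Per cell 9 were lower and 2 higher. The summed level of the list was 10281 to 10787 CPM in WT and 5757 to 6162 CPM in KO paused libraries, and no member was at 0 counts in either group. Nanog, a homeobox factor at the centre of the network, is shown with its promoter because it holds neighbouring matches to the octamer-like ATGCAAA and to the Sox-type CATTGT.
Nanog promoter, GRCm38.p6 chr6:122707239-122707538, plus strand: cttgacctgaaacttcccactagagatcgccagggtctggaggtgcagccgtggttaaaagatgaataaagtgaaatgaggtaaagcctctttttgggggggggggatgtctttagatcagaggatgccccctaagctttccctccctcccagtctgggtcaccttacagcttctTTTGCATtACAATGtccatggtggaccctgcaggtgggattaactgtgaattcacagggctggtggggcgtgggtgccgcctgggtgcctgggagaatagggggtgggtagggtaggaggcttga
The 300 bases from RefSeq run from 250 before to 50 after the annotated start, and the capitals are the matches, both on the minus strand. Over 32851 promoter windows of that length, 4.63% hold ATGCAAA on either strand, 12.6% hold CATTGT, and 0.174% hold both with starts within 15 bases. Of the 24 listed genes 16 have a promoter in the table, and Nanog is the only one of them with both matches so close.

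Nanog (chromosome 6, 122707489 to 122714633) stood at 424, 413 and 412 CPM in WT and at 171, 184 and 170 CPM in KO paused cells. It fell by 1.25 ± 0.12 (adjusted p = 4.47e-06) and by 0.85 per cell (adjusted p = 0.0297). The per-cell call was lost without any one of the KO paused libraries, WT paused replicate 2 or 3 or WT FBS replicate 2 (adjusted p 0.0515 to 0.139), and with limma on the authors' deposited log2 values (0.0771). Its neighbours had a median of -0.45. In growing cells its value was 0.09, and the difference between the conditions was called (-1.34, adjusted p = 0.000306). Pou5f1, which encodes the core factor Oct4, was at 744, 877 and 858 CPM in WT and 402, 445 and 448 CPM in KO, lower by 0.94 ± 0.16 (adjusted p = 0.000357), and was not called per cell. Sox2, its partner on DNA, read 578, 595 and 663 CPM against 597, 624 and 687 CPM, with overlapping groups and a fold change of 0.05 ± 0.13 (adjusted p = 0.758). The largest fall in the list was that of Tbx3, a T-box factor, from 175, 174 and 194 CPM to 3.03, 3.39 and 1.90 CPM, or -6.06 ± 0.36 (adjusted p = 8.83e-08). Dppa5a fell from 89.7, 93.4 and 107 CPM to 9.58, 10.9 and 13.3 CPM. Klf5, a Krüppel-like factor, fell by 2.72 ± 0.20, Tet2, a 5-methylcytosine dioxygenase, by 2.42 ± 0.17, and Tfcp2l1, a target of LIF signalling, by 2.06 ± 0.26, with a neighbour median of -0.69 on chromosome 1. Dppa3, which protects maternal methylation in the early embryo, was the member that rose, from 0.882, 0.560 and 1.94 CPM to 4.79, 4.27 and 5.90 CPM. No promoter of Tbx3, Klf5 or Dppa5a is printed.

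Genes of the primed and formative states, the next step of development, did not move as a block. Of 15 tested, 6 rose and 3 fell, with a median of 0.42. Over all genes 27.7% rose and 24.7% fell. Sox3 rose by 4.07 ± 0.39, Sall2 by 2.86 ± 0.27, the cell adhesion gene Cdh2 by 2.66 ± 0.18 and Pou3f1 by 2.36 ± 0.33. Cdh2 was at 9.51, 8.22 and 10.3 CPM in WT and 56.7, 55.2 and 66.4 CPM in KO paused cells. Otx2, a homeobox factor of the early epiblast, fell by 1.60 ± 0.28 and the ETS factor Etv4 by 1.13 ± 0.14.

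Neural genes showed the highest median of the lists described here. Of 18 tested members 13 were higher and 4 lower, with a median of 2.54, the same when Six3, Neurog1 and Dcx, at 0 counts in WT paused libraries, and Gsx2, at 0 in KO, are set to their bounds. Per cell 13 were higher and 3 lower. The list held 26 genes before the filter on low counts. Members at or near 0 in a paused group passed it through other libraries, so the counts and the median depend on which members passed. Six3, a forebrain homeobox gene, had 0 counts in WT and 567 in KO paused cells (6.16, 7.19 and 8.62 CPM), at least 108-fold higher with 3 counts over the WT group as the floor. Olig2 and Olig1, oligodendrocyte-lineage factors, had 6 and 9 counts in WT and 2610 and 2991 in KO, ratios of CPM of 249 (95% exact interval 114 to 679) and 190 (100 to 416). Neurod1, a proneural factor, rose from 1.18, 0.841 and 0.949 CPM to 43.8, 46.7 and 51.4 CPM, by 5.59 ± 0.26 (adjusted p = 1.45e-08), and Pax6 by 3.26 ± 0.30. Sox1, a marker of neuroectoderm, went the other way, from 122, 142 and 106 CPM to 13.3, 15.3 and 24.3 CPM (-2.79 ± 0.24, neighbour median -0.46). The cell adhesion gene Ncam1 fell by 1.73 ± 0.17 and the Notch target Hes1 by 1.02 ± 0.13. Gsx2 went from 24 counts to 0, at least 13.98-fold lower. The summed level of the list was 279 to 342 CPM in WT and 342 to 391 CPM in KO paused libraries. In bulk RNA a small number of cells with high expression and a low level in many cells cannot be told apart.

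Fibroblast and contractile genes had 14 of 22 tested members higher and 3 lower, with a median of 1.31, and 14 higher and 1 lower per cell. Of 25 listed, S100a4, Actg2 and Postn were not tested. Members near 0 in WT paused libraries passed the filter on low counts through other libraries. These counts and the median therefore depend on which members passed. Acta2, smooth muscle actin, had 1 count in WT and 493 in KO paused cells (6.99, 6.68 and 6.21 CPM), a ratio of 282 (50.4 to 11164). Col3a1 had 1 count against 224, a ratio of 128 (22.8 to 5085), and Col6a1 4 against 173, a ratio of 24.7 (9.49 to 91.8). Myl9, a myosin light chain, rose by 3.43 ± 0.34. The abundant matrix gene Fn1 fell from 2716, 2728 and 2574 CPM to 1333, 1396 and 1313 CPM (-0.99 ± 0.24), with a neighbour median of -0.60 on chromosome 1. Pdgfrb, a growth factor receptor, fell by 1.48 ± 0.23 and Ctgf by 0.63 ± 0.20, the latter lost when single libraries were left out. Owing to Fn1 the summed level of the list was lower in KO (1878 to 1994 CPM) than in WT libraries (2883 to 3063 CPM). Whether cells of another type take part in the neural and contractile counts was not tested.

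Markers of extraembryonic tissues were mixed. Of 20 tested extraembryonic endoderm genes 8 rose and 6 fell, against 27.7% and 24.7% of all genes. Their summed level was 1722 to 1790 CPM in WT and 1334 to 1381 CPM in KO. The basement membrane collagens Col4a1 and Col4a2 rose by 2.63 ± 0.16 and 2.53 ± 0.15 on chromosome 8, where their neighbours had a median of -0.54. Foxa2 rose from 3 counts to 459, a ratio of CPM of 87.5 (29.8 to 426). The endocytic receptor Lrp2 rose by 1.74 ± 0.11. Lamc1, a laminin chain, fell by 1.79 ± 0.11 (neighbour median -0.47), and the endoderm factors Gata4 and Sox7 fell by 2.07 ± 0.33 and 1.91 ± 0.24. Of 15 trophoblast genes 4 rose, the keratins Krt19, Krt8, Krt18 and Krt7, a share near that of all genes, and 1 fell, Tfap2a (-2.96 ± 0.28). Of 21 germline genes 8 fell and 3 rose, against 24.7% and 27.7% of all genes. Stk31 fell by 2.67 ± 0.21, and Mov10l1 and Piwil2, both of the piRNA pathway, by 2.21 ± 0.24 and 0.95 ± 0.10. Sycp1, of the synaptonemal complex, fell by 0.90 ± 0.12. Fkbp6 had 6 counts in WT and 77 in KO, a ratio of CPM of 7.34 (3.22 to 20.6).

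Among all genes the rule for the strongest differences also named Fam212a and Cd109, at 2 and 15 counts in WT and 458 and 2663 in KO paused cells. For Fam212a the ratio of CPM was 131 (36.1 to 1085). Cd109 encodes a membrane-anchored glycoprotein. The strongest falls outside the lists were those of Kcnj3, a potassium channel subunit, from 784 counts to 8, and Sncg, a synuclein, from 341 to 8. Their ratios of CPM, WT over KO, were 171 (86.5 to 398) and 74.5 (37.4 to 174). Phf11d fell by 5.60 ± 0.16, Nkx6-3 by 5.76 ± 0.39, Skida1 by 5.49 ± 0.46, Zmat4 by 5.48 ± 0.25, Rapgef3 by 4.81 ± 0.35, and the row named Sep1, which has no match in the annotation, by 4.93 ± 0.17. Epas1, which encodes the hypoxia-inducible factor HIF-2α, fell from 193, 220 and 211 CPM to 7.18, 8.53 and 7.14 CPM (-4.77 ± 0.28, adjusted p = 8.3e-08).

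Genes of DNA replication were lower relative to the library. Of 36 tested, 25 fell and 2 rose, with a median of -0.44, and without single libraries or under other settings 19 to 32 fell. Outside chromosomes 1, 3, 8, 11 and Y, 14 of 24 fell and 1 rose, with a median of -0.39. Pola1, the catalytic subunit of the primase-associated polymerase, fell from 180, 152 and 149 CPM to 55.9, 51.3 and 53.1 CPM (-1.58 ± 0.11, adjusted p = 3.18e-07). The helicase subunits Mcm6 and Mcm3 fell by 1.13 ± 0.08 and 1.12 ± 0.09, with neighbour medians of -0.84 and -0.34 on chromosome 1, and the GINS subunit Gins3 fell by 1.27 ± 0.11. Tk1, a thymidine kinase, and Fen1, the flap endonuclease, rose by 0.98 ± 0.16 and 0.84 ± 0.14. Per cell the median was -0.06 against 0.39 for all genes. On that scale 3 of the 36 fell and 2 rose, where 5.62% of all genes fell and 27.1% rose. Between 1 and 7 fell per cell when libraries or settings were changed.

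Targets of p53, the factor that halts the cycle after damage, were mostly higher. The list of 25 also holds Trp53, the gene of p53 itself. Of 25 genes 14 rose and 5 fell, with a median of 0.55, and per cell 15 rose and 0 fell, with 0 lower also at an unadjusted p under 0.05 in edgeR and with limma on the authors' deposited log2 values. With the 6 paused libraries only 1 fell per cell, Trp53 (-0.61, adjusted p = 0.0389). Cdkn1a, the cyclin-dependent kinase inhibitor p21, was at 8.04, 10.1 and 9.35 CPM in WT and at 39.8, 36.3 and 37.4 CPM in KO paused cells, a rise of 2.04 ± 0.28 (adjusted p = 6.67e-05). Bbc3, a pro-apoptotic BH3 protein, rose by 1.19 ± 0.15, Eda2r by 1.16 ± 0.11 and the DNA polymerase Polk by 0.91 ± 0.13. Trp53 itself fell from 317, 356 and 392 CPM to 166, 184 and 187 CPM (-0.99 ± 0.14, not called per cell), and Pmaip1, Rrm2b and Xpc fell by 0.63, 0.58 and 0.30. The list had 3 lower without KO paused replicate 1 or WT paused replicate 2. In the G1 control list 4 of 20 rose and 9 fell on the relative scale, and 5 rose and 1 fell per cell. Over all genes the shares were 27.7% and 24.7% on the relative scale and 27.1% and 5.62% per cell. Cdk6 rose by 1.00 ± 0.08, while the cyclin Ccnd3 fell from 142, 185 and 145 CPM to 29.8, 30.6 and 30.0 CPM (-2.38 ± 0.20), and E2f4 and Rbl1 fell by 1.06 ± 0.14 and 0.99 ± 0.16. Of 38 mitotic genes 4 rose and 5 fell, fewer in each direction than the share over all genes. The phosphatase gene Cdc25b rose by 1.19 ± 0.14, Aurka by 0.52 ± 0.08, Cenpa by 0.29 ± 0.07 and Cenpe by 0.79 ± 0.17 (neighbour median 0.60), and Nusap1 and Cenpf fell by 0.47 and 0.46. Without WT FBS replicate 1 the mitotic counts were 9 and 10.

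Genes of protein synthesis had medians slightly below that of all genes. Of 34 ribosome biogenesis genes 13 fell and 2 rose, and of 38 translation factors 9 fell and 2 rose. Of 37 ribosomal protein genes 8 fell and 0 rose in edgeR's test, the same counts as at an unadjusted p under 0.05 and with DESeq2. Per cell 3 biogenesis genes, 3 translation factors and 0 ribosomal protein genes rose, the last also at an unadjusted p under 0.05 in edgeR and with limma, and 0 genes of the 3 lists fell. For the 4 lists of protein synthesis and mTOR, limma on the authors' deposited log2 values also gave 0 lower per cell, and at an unadjusted p under 0.05 in edgeR 1 biogenesis and 1 mTOR gene were lower. With the 6 paused libraries only, Nop58 (-0.69, adjusted p = 0.0181) and Deptor (-0.69, 0.0180) were called lower per cell. Each of these 2 lists also had 1 lower with a replicate block, or without KO FBS replicate 1 or 2 or WT paused replicate 1. With a replicate block 4 ribosomal protein genes were higher per cell. The per-cell rises were 1 in the biogenesis list without KO paused replicate 2 or WT paused replicate 1, and 1 among translation factors without any one of the KO paused libraries, WT paused replicate 1 or 3 or WT FBS replicate 2. On the relative scale, for the ribosomal proteins and the translation factors the lower calls are near the 24.7% of all genes. The medians of ribosomal proteins, biogenesis genes and translation factors were -0.17, -0.19 and -0.17 on the relative scale and 0.21, 0.19 and 0.21 per cell. Without WT FBS replicate 1, 16, 18 and 21 fell on the relative scale. Of 23 mTOR pathway genes 8 fell and 3 rose on the relative scale, and 0 fell and 4 rose per cell. Rragd, a Rag GTPase, rose from 43.1, 37.5 and 41.0 CPM to 165, 165 and 153 CPM (1.99 ± 0.40), and the mTORC1 inhibitor Ddit4 rose by 1.59 ± 0.41. Deptor, a protein that binds and inhibits mTOR, fell by 1.08 ± 0.10, and Nprl3, of the GATOR1 complex, fell by 0.95 ± 0.14. Eif4ebp1, a translation repressor that mTOR phosphorylates, stood at 0.46 ± 0.21 (adjusted p = 0.0818), and was higher per cell (0.84, adjusted p = 0.0293). On the relative scale Eif4ebp1 passed with the 6 paused libraries only (adjusted p = 8.99e-06) and without WT FBS replicate 1 (0.000341) or 3 (0.0283). Its per-cell call was lost without any one of the KO paused libraries, WT paused replicate 1 or 3 or WT FBS replicate 2 (adjusted p 0.0526 to 0.176). Without WT FBS replicate 1 the mTOR list had 7 higher.

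In the PI3K and FoxO list, upstream of mTOR, 7 of 18 rose and 1 fell, and without WT FBS replicate 1 or with the 6 paused libraries only 13 rose and 2 fell. Pik3r1, a regulatory subunit of PI3K, rose from 16.6, 13.4 and 14.2 CPM to 46.2, 47.2 and 50.4 CPM (1.71 ± 0.10, adjusted p = 6.16e-08). Sesn3, a FoxO target, rose by 1.08 ± 0.20, the kinase Akt1 by 0.89 ± 0.14 and Pik3cb by 0.87 ± 0.10, while Pik3r2 fell by 0.43 ± 0.10 (neighbour median -0.42). Lysosome and autophagy genes had 14 of 38 lower and 1 higher, with a median of -0.38, and 1 lower and 2 higher per cell. Tfeb, the master regulator of lysosomal genes, fell by 1.16 ± 0.12, Atg7, of the autophagy conjugation system, by 1.13 ± 0.11, and the proton pump subunits Atp6v1a and Atp6v1h by 1.04 ± 0.09 and 0.93 ± 0.11, the last with a neighbour median of -0.54. Gla, a lysosomal galactosidase, was the member that rose (0.58 ± 0.18), a call lost when single libraries were left out. Without WT FBS replicate 1 the list had 22 lower and 7 higher.

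Targets of Atf4, the factor of the amino acid response, numbered 10 of 38 higher and 10 lower on the relative scale, near the shares over all genes, and 18 higher and 2 lower per cell. Per cell 10 were higher without WT paused replicate 1. Stc2, a secreted glycoprotein, rose by 2.66 ± 0.30, the amino acid transporter Slc1a4 by 2.03 ± 0.39, Cebpb by 1.19 ± 0.24, and Sars, a seryl-tRNA synthetase, by 1.18 ± 0.13 with a neighbour median of 1.42. Cth, which makes cysteine, fell by 2.54 ± 0.37 (neighbour median -0.83), the cationic amino acid transporter Slc7a1 by 1.19 ± 0.20, Eprs by 0.83 ± 0.09 and Atf5 by 0.74 ± 0.14. With the 6 paused libraries only 19 rose, and without WT FBS replicate 3, 16. Of 13 fatty acid synthesis genes 6 rose and 1 fell. The desaturases Scd1 and Fads2 rose by 1.18 ± 0.13 and 1.10 ± 0.17, the elongase Elovl1 by 0.83 ± 0.11, and Acaca, the rate-limiting carboxylase, by 0.52 ± 0.11, and Acss2 fell by 0.68 ± 0.18. The lower count was 3 without WT FBS replicate 1. Of 23 glycolysis genes 7 rose and 5 fell, near the shares over all genes, or 9 fell without WT FBS replicate 1. The lactate and pyruvate carrier Slc16a1 rose by 1.97 ± 0.11 on the raised stretch of chromosome 3 (neighbour median 1.42) and Hk1, a hexokinase, by 0.97 ± 0.14, while the glucose transporter Slc2a3 fell by 1.07 ± 0.24.

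**Figure D4:**
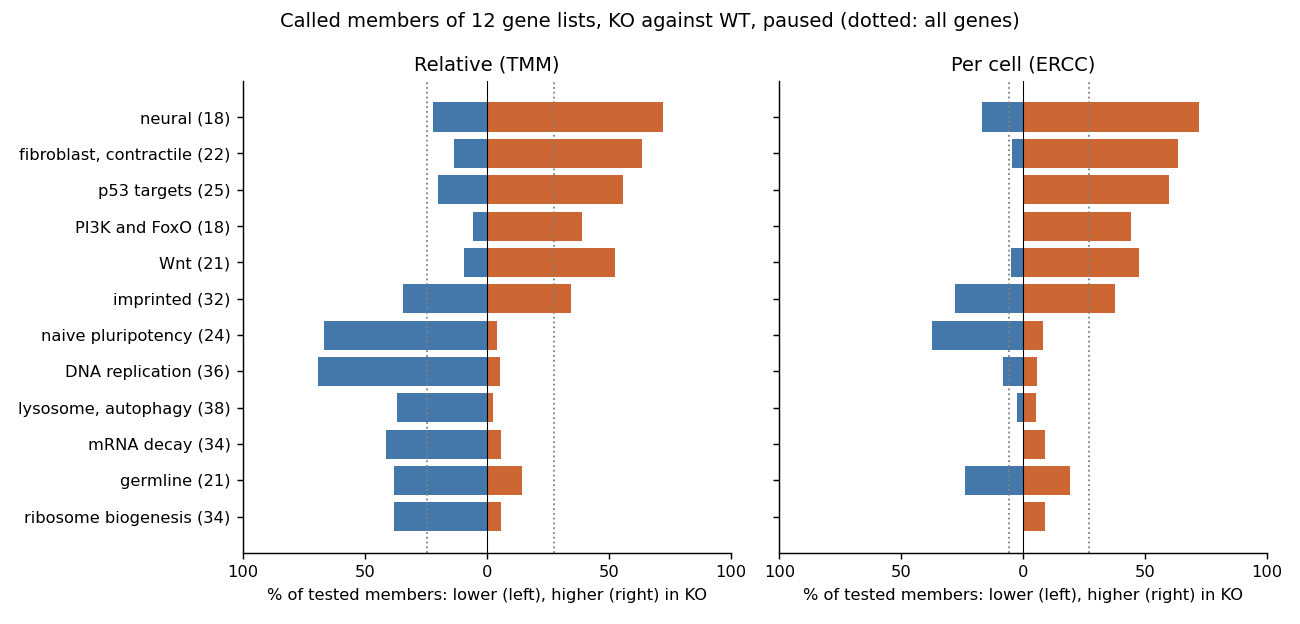
Share of tested members of 12 gene lists called lower (blue, to the left) and higher (orange, to the right) in KO paused cells, on the relative (left panel) and per-cell (right panel) scale, with dotted lines at the share over all tested genes. Neural, contractile and p53 target genes lie to the right on both scales. The lower calls of DNA replication, lysosome and mRNA decay genes are few per cell, where 5.62% of all genes were called lower.

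Imprinted genes, of which one parental copy is silent, had 11 of 32 members higher and 11 lower, and 12 higher and 9 lower per cell. The noncoding RNAs of the Dlk1-Dio3 cluster on chromosome 12 were much lower. Meg3 (109541001 to 109571726, plus strand) stood at 62.1, 55.5 and 74.3 CPM in WT and 3.03, 3.20 and 3.46 CPM in KO paused cells (-4.30 ± 0.19, adjusted p = 9.36e-09). Rian, in the same cluster (109603940 to 109661716), fell from 39.1, 37.2 and 41.7 CPM to 1.61, 1.62 and 2.50 CPM (-4.33 ± 0.23). Cobl, an actin nucleator gene, fell by 2.60 ± 0.11, and Zdbf2 by 1.90 ± 0.11 with a neighbour median of -0.59. H19, a noncoding RNA, rose from 2.26, 3.55 and 2.08 CPM to 13.4, 14.5 and 20.2 CPM, and Mest rose by 2.51 ± 0.17, Sgce by 2.08 ± 0.18 and Ndn by 1.19 ± 0.15. Among 15 genes of Polycomb repressive complex 2 and DNA methylation, 4 rose, near the share over all genes, and 7 fell on the relative scale, and 4 rose and 1 fell per cell. Per cell 2 rose without KO paused replicate 2 or 3, WT paused replicate 1 or 3, KO FBS replicate 3 or WT FBS replicate 2. The methyltransferase Dnmt3b rose from 54.2, 64.1 and 59.5 CPM to 155, 162 and 178 CPM (1.48 ± 0.25), and Tet3 rose by 1.49 ± 0.13. Ezh2, the catalytic subunit of the Polycomb complex, fell by 0.73 ± 0.08. Of 34 mRNA decay genes 14 fell and 2 rose on the relative scale. For the 23 outside chromosomes 1, 3, 8, 11 and Y these counts were 8 and 1, with a median of -0.14. Per cell 0 of the 34 fell in edgeR, also at an unadjusted p under 0.05 and with limma on the authors' deposited values. With the 6 paused libraries only, or with a replicate block, 1 fell per cell. The per-cell rises numbered 3, or 0 without KO paused replicate 2 or 3, WT paused replicate 1 or 3 or WT FBS replicate 2. Cnot1, the scaffold of the deadenylase complex, and Edc4, of the decapping complex, fell by 0.98 ± 0.07 and 0.73 ± 0.09, both on chromosome 8. Without WT FBS replicate 1 the decay list had 6 higher.

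In signalling, the Wnt list had 11 of 21 members higher and 2 lower, with 8 to 11 higher over the other settings. Over all genes 27.7% were higher and 24.7% lower. Outside chromosomes 1, 3, 8, 11 and Y, 5 of 14 Wnt members were higher and 2 lower, with a median of 0.22. Of all 11529 genes there, 3356 were higher and 2504 lower. Sp5, a direct target, rose from 3.92, 7.75 and 3.61 CPM to 28.1, 28.6 and 28.8 CPM (2.52 ± 0.36), and the scaffold gene Axin1 rose by 0.70 ± 0.07. Cdx1 fell by 1.54 ± 0.33. Of 18 LIF pathway genes 5 rose, near the share over all genes, and 8 fell. Outside chromosomes 1, 3, 8, 11 and Y, 4 of 10 rose and 3 fell, beside the 3356 and 2504 of 11529 genes given above. The kinase gene Jak2 rose by 1.87 ± 0.19 and Stat5b by 1.25 ± 0.23, while Stat3, which carries the LIF signal, fell from 196, 195 and 190 CPM to 90.2, 85.7 and 82.3 CPM (-1.17 ± 0.12). In the FGF list 4 of 14 rose and 4 fell, near the shares over all genes. The receptor Fgfr2 rose from 3.73, 5.79 and 6.51 CPM to 48.4, 45.7 and 45.5 CPM (3.09 ± 0.16, adjusted p = 2.64e-08), and the ligand Fgf18 by 2.65 ± 0.23. Fgf4, the ligand made by naive cells, fell by 1.17 ± 0.16 and Fgfr3 by 1.55 ± 0.26. Bmp4, a ligand that supports self-renewal, fell from 29.9, 32.1 and 29.9 CPM to 3.23, 3.39 and 2.08 CPM (-3.43 ± 0.21).

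Much of the difference in paused cells was also present in growing cells. Across 11858 genes of at least 1 CPM in all groups, the 2 genotype differences, which share no library, had a Pearson correlation of 0.72 and a Spearman correlation of 0.70 across genes, which are not independent replicates and share the cell lines. Of the genes called in paused cells, 2950 were higher and 2662 lower in both conditions, 141 were higher in paused and lower in growing cells, and 172 the reverse. In growing cells 57.9% of tested genes were called, 29.2% higher and 28.8% lower. A test of the difference between the genotype differences called 17.7% of genes, 1349 (8.83%) with a higher and 1357 (8.88%) with a lower value in paused cells. Without WT FBS replicate 1 these counts were 3792 and 2708, and without KO FBS replicate 2, KO paused replicate 2 or KO paused replicate 3 the higher count was 858, 871 and 891.

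The rule for the widest gap toward paused cells named Six3 and Acta2, described above, and Gsx1, Insm1, Gjb1 and Kcna3. Gsx1, a homeobox gene, was at 1.27, 1.68 and 0.858 CPM in WT and 7.33, 6.82 and 9.73 CPM in KO paused cells, a rise of 2.72, against -2.85 in growing cells (difference 5.58, adjusted p = 0.000406). Insm1, a zinc-finger factor of neuroendocrine cells, rose by 5.56 against 1.29, and the connexin gene Gjb1 by 3.54 against -0.69. Kcna3, a potassium channel, had 5 counts in WT and 584 in KO paused cells with a neighbour median of 1.45. Its ratio of CPM was 66.8 (28.5 to 207). At the other end, Heph, a copper-dependent ferroxidase, fell by 2.45 in paused cells and stood at 2.61 in growing cells (difference -5.06, adjusted p = 2.28e-06). The keratin Krt42 and Ccdc141 had the same pattern, at -2.35 against 2.08 and -2.85 against 0.87. Gata3, a trophoblast factor, was at 1.57, 1.21 and 1.63 CPM in WT and 1.27, 0.927 and 0.663 CPM in KO paused cells (-0.68 ± 0.32, adjusted p = 0.0888), and at 3.77 in growing cells. Ptgs2, a prostaglandin synthase, was at -0.85 (neighbour median -0.58) against 2.84, and Calcoco2, an autophagy receptor on distal chromosome 11, at -0.40 against 3.27. Of the lists, 8 of 15 trophoblast and 9 of 21 germline genes had a lower difference in paused than in growing cells, against 8.88% of all genes, and 21 of 38 mitotic genes had a higher one, against 8.83%. The trophoblast count was 4 without KO paused replicate 3 or WT paused replicate 3, and 5 without KO FBS replicate 1, WT paused replicate 1 or either other KO paused library. The Atf4 list had 16 of 38 higher and 29 without WT FBS replicate 1. The Atf4 count was 8 without KO FBS replicate 1, KO paused replicate 3 or WT paused replicate 1, 9 without KO FBS replicate 2, and 10 without KO paused replicate 1 or 2 or WT paused replicate 3.

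**Figure D5:**
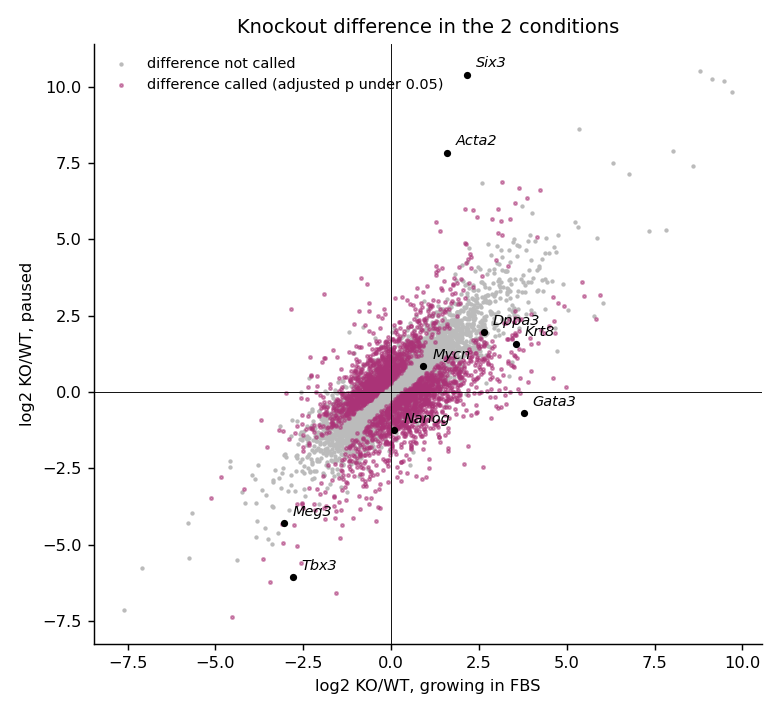
Log2 KO over WT on the relative scale in growing cells (horizontal axis) and paused cells (vertical axis) for 13150 genes with a mean of at least 1 CPM, with genes whose difference between conditions was called in purple. Most genes follow the diagonal, and Nanog and Tbx3 lie below it, Six3 and Acta2 above it and Gata3 far to its right.

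Transcript structure was set beside the difference as a description. The median in paused cells was 0.20 for 411 genes with 1 exon and 0.35 for 744 genes with 2 exons. Among genes with internal exons it was 0.00 where the longest internal exon was at most 200 bases (5392 genes), -0.04 above that and up to 400 bases (4805), 0.11 above that and up to 1000 bases (1960) and 0.14 above 1000 bases (905). Transcript length moved with these classes, with a median of 2443 bases in the class up to 200 and 6011 bases in the class above 1000. By number of GGACT matches in the transcript, the median went from -0.03 for none (1030 genes) to 0.08 for 8 to 12 (1440 genes) and 0.05 for more than 12 (355 genes). These differences between classes are small beside the spread within them, with quartiles of -0.28 and 0.67 in the class above 1000 bases. Mycn, with 2 matches and a longest internal exon of 877 bases, rose, and Nanog, with 4 matches and a longest internal exon of 266 bases, fell.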

How the data were processed

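Counts of 12 poly(A) RNA-seq libraries were analysed. The deposited counts are whole-number reads per gene symbol with 92 ERCC rows. Per the submitters' processing notes, the mm10 build, edgeR 3.32.1, Subread 1.5.0 with featureCounts, and Trim Galore 0.4.0 are named, with no role or order given. The authors also deposited log2 values per cell, used as an alternative.

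Of 24421 gene rows, 15281 passed edgeR's filterByExpr (minimum count 10, minimum total 15). edgeR 4.0.16 (robust quasi-likelihood, Benjamini-Hochberg, R 4.3.3) was fitted to all 12 libraries with 4 group means, with library size as gene total times TMM (relative) or ERCC total times a TMM factor over ERCC rows (per cell). RNA per cell was tested by exact permutation. Genes with 10 or fewer counts in a group are given as summed counts, most with a ratio of CPM and its 95% exact interval. Together the KO paused libraries held more counts than the WT ones, so summed counts alone overstate rises and understate falls. Positions are from GENCODE vM21, where 369 rows had no match. Scripts were tested on simulated data.

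Members and the 43 lists were chosen with earlier results of these data known. Genes were named by rule: 8 set genes and 4 Y-linked genes, the 10 strongest in each direction (mean of at least 5 CPM in the higher group, groups not overlapping), 6 by the difference between conditions, and up to 4 per list and direction by p. One gene that the rule named is not reported here. Lists were described by counts without a test. Alternatives were each library left out, a replicate block, no filter, the 6 paused libraries only, DESeq2 1.42.0 (size factors, Wald test), TMM outside 5 chromosomes, the plain ERCC total, and the authors' log2 values with limma 3.58.1.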

Additional observations from a re-analysis of the deposited data

Results flagged for a closer look

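The knockout difference in paused cells was set against the one in growing cells by a test of the difference itself, and 2706 of the 15281 tested genes passed at an adjusted p under 0.05 in edgeR. Among the genes named in the report those below passed, each with its difference (paused minus growing, log2, relative scale). WT FBS replicate 1 bears on the number of such genes, which rose without it, and the regional shifts of chromosomes 1, 3 and 11 that differ between the conditions bear on genes there. Their part in any of these values was not tested. The call was lost under 10 of the other settings for Pax6, 9 for Foxa2 and Cebpb, 8 for Krt18, 7 for Cenpe and Sgce, 6 for Gla, 5 for Pola1, 4 for Kcnj3, 2 for Col3a1 and 1 for Fgfr3, Kcna3 and Rian, each setting a single library left out except the replicate block for Foxa2.

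A higher value in paused cells was seen for Gsx1 (5.58), Insm1 (4.27), Gjb1 (4.24), Fgf18 (3.57), Stc2 (3.30), Sox3 (2.62), Neurod1 (2.47), Cd109 (2.39), Sall2 (2.24), Sox1 (2.05), Sars (1.87), Slc16a1 (1.86), Col4a1 (1.80) and Lrp2 (1.70). Smaller gaps in this direction belonged to Cdh2 (1.62), Bbc3 (1.45), Col4a2 (1.44), Pax6 (1.43), Fgfr3 (1.36), Scd1 (1.26), Mest (1.18), Atf5 (1.16), Rbm15 (1.12), Slc7a1 (1.11), Cdk6 (1.08), Cebpb (1.07), Mettl14 (1.05) and Fgfr2 (0.98). The group was completed by Fads2 (0.97), Gla (0.89), Sgce (0.88), Cenpe (0.86), Cenpa (0.73), Tet3 (0.71), Aurka (0.70), Nusap1 (0.68), Eda2r (0.67), Mcm6 (0.55) and Igf2bp3 (0.47). 

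A lower value in paused cells was seen for Heph (-5.06), Gata3 (-4.45), Krt42 (-4.43), Ccdc141 (-3.72), Ptgs2 (-3.69), Calcoco2 (-3.67), Epas1 (-3.33), Tbx3 (-3.26), Stk31 (-3.13), Phf11d (-3.02), Dppa5a (-2.30), Ncam1 (-2.30), Mov10l1 (-1.98) and Krt8 (-1.97). Smaller gaps in that direction belonged to Sep1 (-1.87), Zmat4 (-1.82), Bmp4 (-1.80), Ctgf (-1.78), Fgf4 (-1.69), Tfap2a (-1.67), Krt18 (-1.57), Piwil2 (-1.49), Acss2 (-1.40), Nanog (-1.34), Rrm2b (-1.27), Meg3 (-1.25) and Rian (-1.23). The last of them were Tet2 (-1.21), Sycp1 (-1.05), Igf2bp2 (-0.94), Pik3r1 (-0.71), Lamc1 (-0.61), Pola1 (-0.59) and Mcm3 (-0.53). 

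The values of Six3 (8.25), Acta2 (6.26), Kcna3 (3.87), Fam212a (3.71), Col3a1 (3.05), Foxa2 (2.47), Kcnj3 (-2.83) and Sncg (-2.79) rest on 8 or fewer counts over 1 paused group, so the fitted size depends on the prior count and is no bound.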

How the results depend on the processing

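The relative counts of 4228 higher and 3771 lower genes stayed within 1.5 times under every alternative, from 3570 to 5213 and from 3176 to 5012. The per-cell count of 4146 higher did so too (2775 to 5901). When a library was left out, the 859 lower per cell ranged from 567 to 1125, and the differences between conditions from 858 to 3792 higher and from 936 to 2708 lower. Both upper ends of the latter came without WT FBS replicate 1, and the cause was not tested. TMM from genes outside 5 chromosomes gave 4041 higher and 4031 lower.

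The replicate numbers do not pair the libraries by the labels. Deviations of same-numbered WT and KO paused libraries correlated at 0.31, 0.098 and 0.14 across genes, each library best with its own number, which is a hint only. With a replicate block, 4396 genes were higher and 4069 lower, 5901 and 1204 per cell, and 1598 and 1520 between conditions. In that fit Myc passed (-0.82, adjusted p = 0.0457), Trp53 was lower per cell (-0.57, adjusted p = 0.0227), and Foxa2 was not called between conditions. Same-numbered libraries of the other groups compared correlated at 0.090 to 0.37, and RNA per cell was higher in the KO paused library of 3 of 3 such pairs.

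Of the 173 genes named, 11 lost a call on the relative scale under at least 1 alternative, 18 per cell and 13 between conditions. The difference between conditions changed sign without WT FBS replicate 1 for Myc (0.40, from -0.35 to 0.40 over the libraries left out), Fn1 (-0.38, from -0.38 to 0.30) and Rragd (-0.47, from -0.47 to 0.76), none of which was called with all libraries. RNA per cell lay between 0.12 and 0.35 when a library was left out. Depth limits genes with few counts, where counting intervals can span more than 10-fold.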

Other observations

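Lists that the report does not describe had counts of higher and lower genes in KO paused cells as follows, on the relative scale, against 27.7% and 24.7% of all genes. Cholesterol synthesis had 4 higher and 2 lower of 26 tested genes, with 10 and 4 without WT FBS replicate 1, and oxidative phosphorylation had 6 and 7 of 52, with 14 and 17. Outside chromosomes 1, 3, 8, 11 and Y, oxidative phosphorylation had 5 higher and 1 lower of 39. RNA polymerase II and its partners had 5 higher and 9 lower of 32, with 2 higher without KO paused replicate 2. Outside the same chromosomes that list had 4 higher and 2 lower of 24. RNA polymerases I and III had 6 and 6 of 26. Heterochromatin genes had 3 higher and 6 lower of 17, with 6 higher in the 6 paused libraries alone. Chaperones had 2 higher and 7 lower of 22, with 13 lower without WT FBS replicate 1. Immediate early genes of ERK signalling had 3 higher and 5 lower of 21, with 10 lower without WT FBS replicate 1. The BMP and Id list had 5 and 5 of 18, with 8 lower without WT FBS replicate 1, and mesendoderm had 3 and 2 of 15. Interferon and innate sensing genes had 4 higher and 8 lower of 19. Of 36 Hox genes 7 were tested, with 1 higher and 2 lower, and of 12 genes of the 2-cell state 2 were tested, with 1 higher.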
